A study of Mus musculus with 10 samples.

Results

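The genes described here are 9 members of the Notch pathway: the receptors Notch1, Notch2 and Notch3, the ligands Dll1, Dll3 and Jag1, and the target genes Hes1, Hes5 and Hey1. They were taken by name, and every probe carrying 1 of these symbols alone was used. Each gene had 1 probe, so 9 of the 15063 singly named genes on the array are covered. RNA from the rostral and the caudal end of embryonic mouse neocortex at E11.5 was compared on 10 two-colour arrays. The C57 inbred strain gave 2 pools and the outbred MF1 stock gave 3 pools, each pool holding tissue of 3 embryos. The labels name no mutation or treatment for either strain, and the rostral and caudal samples of a pool shared 2 arrays with the dyes exchanged. Each pool stayed within a litter per the design text, and p-values measure the spread between such pools.

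Notch receptors are cleaved when a Delta or Jagged ligand on a neighbouring cell binds them, and the freed intracellular part joins the DNA-binding protein RBPJ to switch on Hes and Hey genes. Hes and Hey proteins repress proneural genes such as Neurog2, and proneural proteins in turn raise Dll1. In the early cortical wall this exchange between neighbours is known for keeping part of the neuroepithelium dividing while other cells become neurons.

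Values are given on the log2 scale as caudal divided by rostral RNA, so 1 means a doubling at the caudal end and a negative value means more rostral RNA. The direction reads the deposited ratio as Cy5 over Cy3, which the files do not state. With that reading Nr2f1, a nuclear receptor of the caudal cortex, was 1.85 ± 0.22 (SE, n = 5 pools) at one probe and 0.57 ± 0.20 at another, positive in 5 and 4 of 5 pools. Spry1, an FGF target, was -1.28 ± 0.14 and negative in all 5 pools. If the reading were the opposite, every sign here would turn. Ratios carry no level, so whether a marker of neuroepithelium or of another cell type was present cannot be read from them. Fewer cells of a type and less RNA per cell cannot be told apart in these bulk samples.

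The array-wide facts limit what small ratios can show. Over 5 pools the median of all measured probes ran from -0.20 to 0.37, and arrays were left uncentred in the values below. After both arrays of a pool had been turned to caudal over rostral, their correlation across probes lay between -0.25 and 0.03, and 54.7% of pool values from 2 arrays had the same sign on both, against 24 of 37 for the Notch genes. The 232 control spots for Gapdh had a standard deviation of 0.09 to 0.17 within a pool after averaging the 2 arrays, a spread between spots of 1 RNA pair. For single arrays that standard deviation was 0.25 to 0.43.

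Testing needed both dye orders in 2 or more pools of each strain. An array with caudal RNA in Cy5 is called a caudal-Cy5 array here and its partner a caudal-Cy3 array. Of the 9 genes, Notch1, Notch3, Dll1, Hes1 and Hey1 were measured on all 10 arrays, and Hes5 on 9. These 6 were tested. Notch2 and Jag1 were measured on 8 arrays and Dll3 on 4, and their values are given without a test. No Notch gene passed an adjusted p of 0.05 for the mean of both strains (limma, Benjamini-Hochberg over 11855 probes); the share of all tested probes that passed was 0%. At an unadjusted p under 0.05 there was 1 gene of 6, Hey1, against 367 probes or 3.1% of all. The ratios were positive for 4 of 6 and their median was 0.23, against 69.4% of all tested probes and a median of 0.09. The median of the 6 was 0.085 without MF1 pool 1 and 0.149 without MF1 pool 3, and all 6 were positive without C57 pool 1. After each array had been centred on its median, 4 of 6 were positive, the median was 0.18 and the share of all probes was 59.2%, with a median of 0.04.

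**Figure D1:**
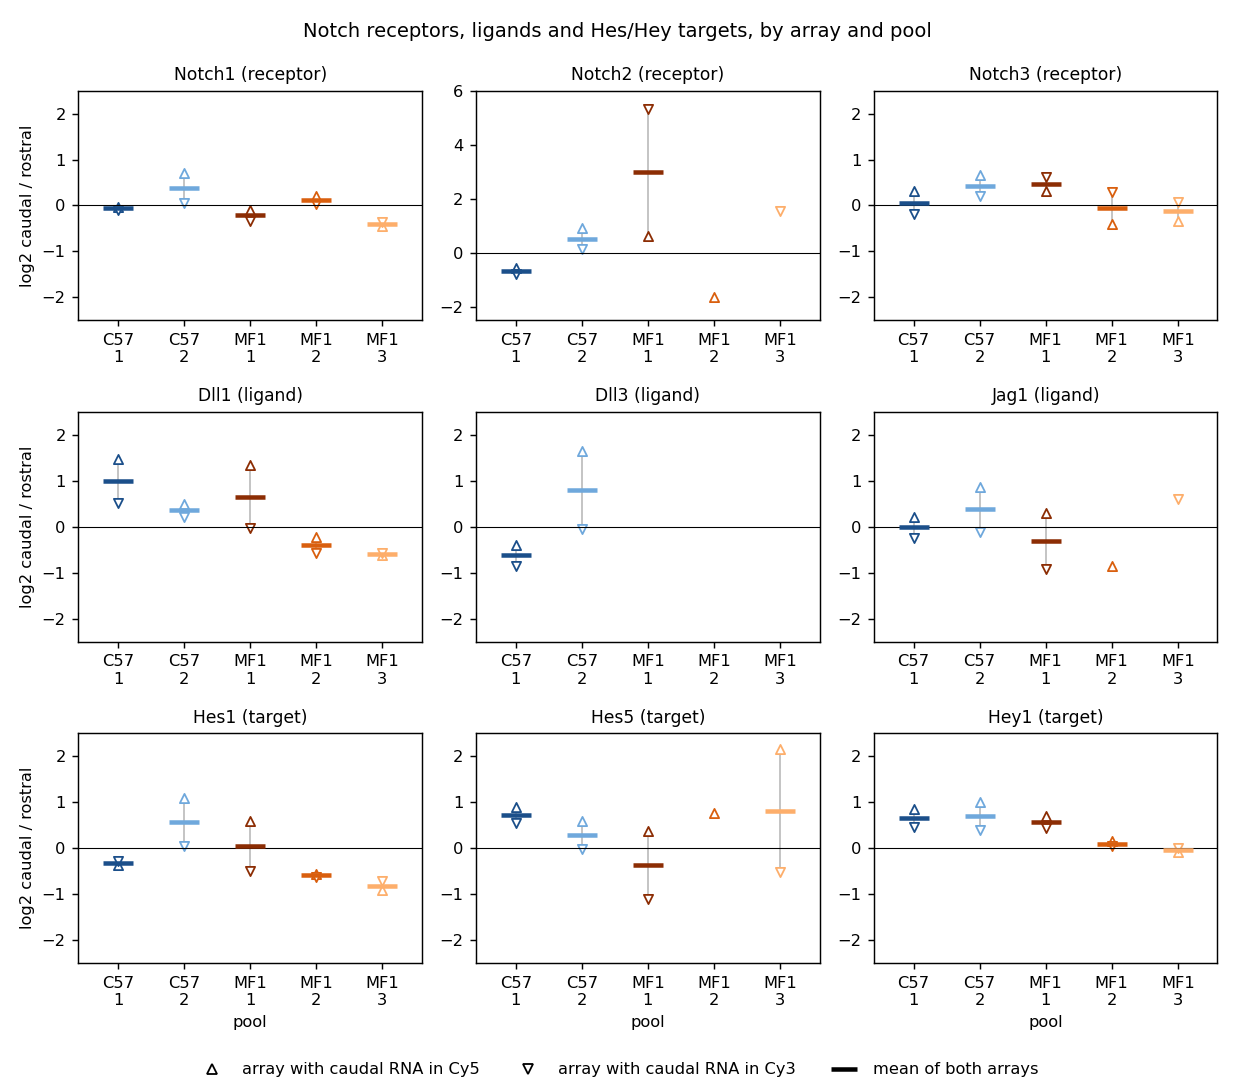
Log2 caudal over rostral ratio (vertical axis, 0 marked; Notch2 has a wider axis) of the 9 genes in each pool; triangles are the 2 arrays of a pool and bars their mean. Hey1 had the same sign on both arrays in 4 of 5 pools, while Hes5 in MF1 pool 3 stood at 2.16 on one array and -0.52 on the other.

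Among the receptors, Notch1, the main receptor of cortical progenitors, had a mean ratio near 0. C57 pools 1 and 2 gave -0.06 and 0.39, and MF1 pools 1 to 3 gave -0.22, 0.12 and -0.40. The strains overlapped, and both arrays had the same sign in all 5 pools. The mean of both strains was -0.00 ± 0.16 (SE), with a 95% interval from -0.40 to 0.40 and a limma adjusted p of 0.998. No side can be given for Notch1. The sign of this mean was positive, at 0.11, without C57 pool 1, at 0.01 without MF1 pool 1 and at 0.06 without MF1 pool 3.

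Notch3, a receptor known also for its role in the cells around vessels, stood at 0.06 and 0.43 in the C57 pools and at 0.47, -0.06 and -0.13 in the MF1 pools. Thus 3 pools were above 0 and the MF1 pools spanned both sides. The mean was 0.17 ± 0.17 (SE, adjusted p = 0.983, limma). It was 0.077 without MF1 pool 1, 0.079 without C57 pool 2 and 0.26 without C57 pool 1, and the arrays of a pool had the same sign in 2 of 5 pools. Markers of mural cells and mesenchyme, the cells that share Notch3, had 2 positive and 4 negative probes of 6 tested and a median of -0.07, with pool medians from -0.35 to 0.44. Endothelial markers had 5 positive and 5 negative probes, a median of 0.04 and pool medians from -0.26 to 0.47. Their part in the Notch3 ratio was not tested.

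Notch2, a receptor known from liver and B cells, had the widest range of all. In C57 it stood at -0.68 in pool 1 and 0.53 in pool 2, and both arrays of each pool had 1 sign. In MF1 pool 1 the arrays read 0.62 and 5.33, a pool ratio of 2.98. MF1 pool 2 gave -1.63 and MF1 pool 3 gave 1.53, each from a single array. The MF1 values thus spanned both directions, and no common direction can be read from the 5 pools.

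Of the ligands, Dll1, the Delta ligand that newborn neurons and committed progenitors present to their neighbours, had the largest pool ratio among tested genes. It was 1.0 in C57 pool 1, 0.36 in C57 pool 2, 0.66 in MF1 pool 1, -0.40 in MF1 pool 2 and -0.59 in MF1 pool 3. Both C57 pools were above 0, and the MF1 pools lay on both sides. In MF1 pool 1 the arrays disagreed, at 1.34 on the caudal-Cy5 array and -0.03 on the caudal-Cy3 array. In the other 4 pools both arrays had the same sign. The mean of both strains was 0.28 ± 0.24 (SE, adjusted p = 0.983, limma). It was -0.01 on the caudal-Cy3 arrays alone, and without single pools it ran from 0.09 (MF1 pool 1 left out) to 0.44 (C57 pool 2 left out).

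RefSeq lists 2 starts for Dll1 on GRCm38.p6. Dll1 is the ligand that proneural factors raise, and of its 2 windows the upstream one, which holds CAGCTG, is shown. The window before the other start holds 0 matches. Capitals mark CAGCTG, an E-box that reads the same on both strands, the kind of site proneural bHLH proteins bind. The window shown covers the 250 bases before the start on the minus strand, chr17:15376933-15377182.
Dll1: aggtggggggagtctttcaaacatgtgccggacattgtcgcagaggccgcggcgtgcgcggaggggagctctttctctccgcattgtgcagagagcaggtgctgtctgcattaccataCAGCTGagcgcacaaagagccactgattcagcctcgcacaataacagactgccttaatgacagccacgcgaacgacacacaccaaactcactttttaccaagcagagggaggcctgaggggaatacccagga
CAGCTG stood in 4271 of all 32851 windows of this length, and in 3 of the 8 windows of the 7 Notch genes that had one: Dll1, Dll3 and Jag1. A match is a string of letters and was not tested as a site.

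Dll3, a Delta-like protein that acts within the cell, had ratios in C57 only, -0.62 in pool 1 and 0.80 in pool 2. The pools had opposite signs, and in pool 2 the arrays read 1.66 and -0.06. In MF1 pool 1 one array gave the table's shared highest value, 16.61, which was treated as missing, and no other MF1 array gave a value.

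Jag1, a ligand of the Serrate type known from the inner ear and vessels, had pool ratios of -0.01 and 0.38 in C57 and -0.31 in MF1 pool 1. In each of these 3 pools the arrays had opposite signs. MF1 pool 2 gave -0.84 and MF1 pool 3 gave 0.61, each on 1 array, so Jag1 had no sign on which both dye orders met.

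The targets come next. Hey1, a bHLH repressor known from vessels and from cortical progenitors, had the most caudal mean of the 6 tested genes. C57 gave 0.66 and 0.70, and MF1 gave 0.57, 0.09 and -0.04. The ratio was positive in 4 of 5 pools, and the arrays of a pool had 1 sign in 4 of 5 pools. In C57 pool 2 they read 1.01 and 0.39. The mean was 0.44 ± 0.16 (SE), or 1.36-fold, with a limma p of 0.0327 and an adjusted p of 0.983, and 93.4% of all tested probes had a smaller ratio. With arrays centred the mean was 0.39 and the unadjusted p 0.0836. Without any one pool the mean was 0.35 to 0.51 and the unadjusted p 0.0529 to 0.109. The 10 arrays fitted singly, with a dye term and the pool as a block with a correlation of 0.333, gave 0.44 ± 0.12 and an adjusted p of 0.707. Blood markers, 6 of 6 probes positive with a median of 0.41, had pool medians of 0.67, 0.57, -0.03, 0.15 and 0.09 in the same order. Uncentred, the C57 pools were the higher ones for blood markers and Hey1, while MF1 pool 1 was the lowest for blood markers and 0.57 for Hey1. After centring, Hey1 had 0.84, 0.33, 0.76, 0.0055 and -0.16 in the same order. Centred blood markers had 0.85, 0.2, 0.16, 0.06 and -0.03, so MF1 pool 1 was no longer the lowest. The part of blood cells or endothelium in the Hey1 ratio was not tested.

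Hes5, the target most closely tied to Notch activity in cortical progenitors, had pool ratios of 0.72 and 0.29 in C57, -0.36 in MF1 pool 1 and 0.82 in MF1 pool 3. MF1 pool 2 had 0.78 on the caudal-Cy5 array and no value on the other, and the fit left that pool out. Of the 4 complete pools 3 were positive, but the arrays of a pool had the same sign only in C57 pool 1. The mean was 0.37 ± 0.26 (SE, n = 4 pools, adjusted p = 0.983, limma). It was 0.92 on caudal-Cy5 arrays and -0.27 on caudal-Cy3 arrays, so its direction depended on the dye order. It was 0.07 without MF1 pool 3 and 0.66 without MF1 pool 1. In the fit of single arrays the dye term of Hes5 was 1.26 ± 0.40, the largest of the 6, against a median size of 0.43 over all tested probes (adjusted p = 0.135, limma).

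The stretch before the Hes5 start is shown because RBPJ, through which the cleaved receptors act, is known to bind near this gene. It covers the 250 bases before the RefSeq start on the plus strand of GRCm38.p6, chr4:154960673-154960922, with GTGGGAA, the core of the RBPJ motif, or its reverse complement TTCCCAC in capitals.
Hes5: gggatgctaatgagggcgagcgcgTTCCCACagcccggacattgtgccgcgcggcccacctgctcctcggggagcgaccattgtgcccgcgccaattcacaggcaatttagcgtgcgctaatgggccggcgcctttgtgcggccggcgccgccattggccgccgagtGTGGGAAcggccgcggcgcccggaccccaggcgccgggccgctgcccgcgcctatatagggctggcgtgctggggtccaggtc
The 2 matches begin 226 and 83 bases before the start and lie on opposite strands. GTGGGAA on either strand stood in 5.42% of all 32851 windows, and among the 8 windows of the Notch genes in that of Hes5 alone. Hes1 and Hey1 have no window here. The letters say nothing of binding in this tissue, and the Hes5 ratio above did not pass the test.

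Hes1, the repressor that cycles in neural progenitors, was the lowest of the 6 tested genes. The C57 pools gave -0.33 and 0.57, the MF1 pools 0.05, -0.59 and -0.82. The C57 pools fell on both sides of 0, and the arrays of a pool had the same sign in 4 of 5 pools. The mean was -0.16 ± 0.22 (SE, adjusted p = 0.983, limma). It was 0.06 without C57 pool 1 and 0.03 on the caudal-Cy5 arrays, so no side is given for Hes1. The mean ratios of Hey1 and Hes5 lay above the median of all probes, 0.09, and that of Hes1 below it.

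**Figure D2:**
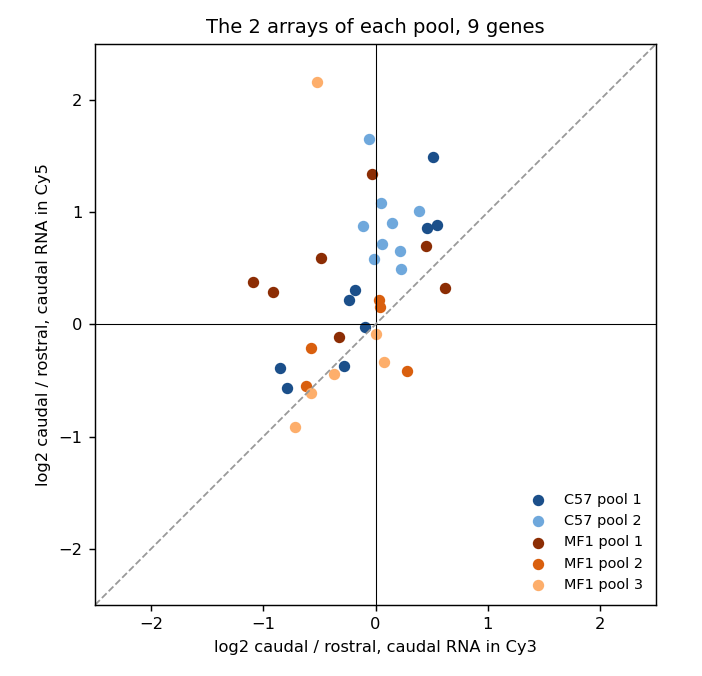
Log2 caudal over rostral ratio of the 9 genes on the caudal-Cy3 array (horizontal axis) and the caudal-Cy5 array (vertical axis), 1 point a gene and pool, with the line of equality dashed. Of 37 pairs 36 are drawn, since Notch2 in MF1 pool 1 (5.33 and 0.62) is off the axes, and most points lie above the dashed line.

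The next comparison asked whether the ratio differed between the strains. All 6 tested genes had a lower caudal to rostral ratio in MF1 than in C57, uncentred and centred, where 61.6% and 51.2% of all tested probes did; none passed the test of the difference. The median difference of the 6 was -0.40, or -0.31 after centring, against -0.10 and -0.01 over all tested probes. Uncentred, the Gapdh control spots had pool medians of 0.30 and 0.20 in C57 and -0.15, 0.10 and 0.015 in MF1. For these spots, both C57 pools were above all 3 MF1 pools. Blood markers were also lower in MF1 at 6 of 6 probes, uncentred and centred, with a median difference of -0.60 and -0.51. Surface ectoderm markers were so at 3 of 4, with -0.84 and -0.76. The list of proneural genes and their partners Tcf3, Tcf4 and Tcf12 was lower in MF1 at 8 of 10 probes, uncentred and centred. Uncentred and centred counts were 7 and 6 of 9 for neuron markers and 8 and 7 of 11 for neuroepithelium. Endothelial markers had 7 and 6 of 10, and hem and choroid plexus markers 3 and 2 of 7. Their part in the Notch differences was not tested. Dll1 had the largest, -0.79 ± 0.48 (SE), from 0.68 ± 0.37 in C57 (n = 2 pools) and -0.11 ± 0.30 in MF1 (n = 3 pools). Its limma adjusted p was 0.999, and the difference was -0.47 without C57 pool 1 and -1.17 without MF1 pool 1. Hes1 differed by -0.57 ± 0.43, from 0.12 in C57 to -0.45 in MF1, but by -0.12 without C57 pool 2 and -1.02 without C57 pool 1. Hey1 differed by -0.47 ± 0.32, from 0.68 to 0.21.

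The remaining differences were smaller. Notch1 differed by -0.33 ± 0.32, Hes5 by -0.27 ± 0.52 and Notch3 by -0.16 ± 0.33. The Notch1 difference was -0.11 without C57 pool 2 and -0.55 without C57 pool 1. The sign turned for Notch3, to 0.03, without C57 pool 2 and for Hes5, to 0.32, without MF1 pool 1; Hes5 had -0.86 without MF1 pool 3 and -0.05 without C57 pool 1. Over all probes 0% passed an adjusted p of 0.05 for the strain difference and 1.88%, or 223, had an unadjusted p under 0.05 (limma), with none of the 6 among them. Within C57 alone Hey1 was the one gene of the 6 with an unadjusted p under 0.05, 0.0342, against 1.81% of all probes, and within MF1 there was none, against 3.96%.

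**Figure D3:**
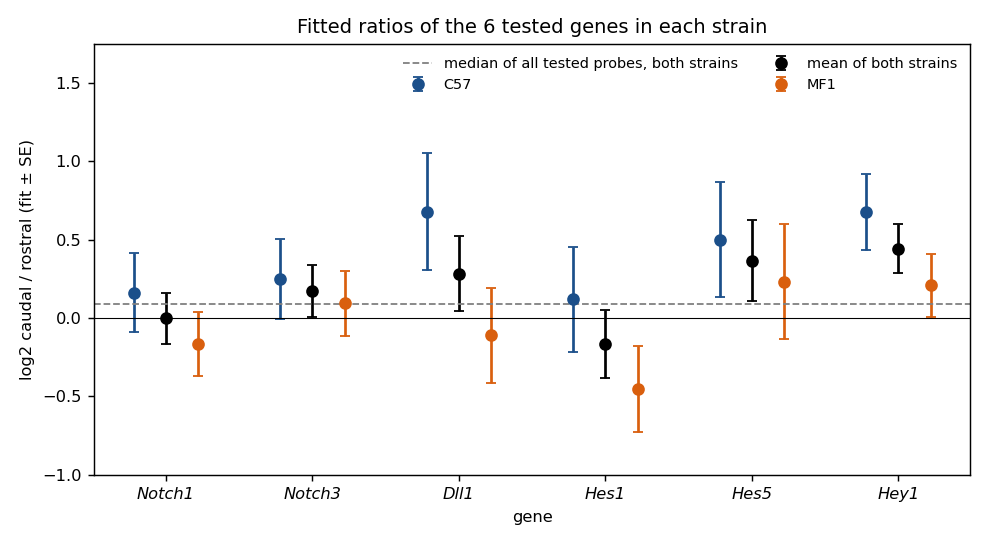
Fitted log2 caudal over rostral ratio with its standard error (vertical axis) of the 6 tested genes in C57, in MF1 and as the mean of both strains; the dashed line is the median of all tested probes for that mean, 0.09. In each of the 6 genes the MF1 point lies below the C57 point, and the error bars of the strains overlap except for Dll1 and Hey1.

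The single pools behind these strain differences, none of which passed the test, are given next. Both C57 pools were above all 3 MF1 pools for 1 of the 5 genes measured in 5 pools, Hey1, against 15.2% of such probes. After centring that held for none of the 5, against 6.49%. MF1 pools 2 and 3 were the 2 lowest pools for Notch3, Dll1, Hes1 and Hey1 but not for Notch1, so for 4 of the 5, against 11.4% of 8924 probes, and again for 4 of 5 after centring, against 17.9%. Hes5 ran the other way, with MF1 pool 3 its highest complete pool, 0.82, and MF1 pool 1 its lowest, -0.36. The order was noticed in the values and has no test. For the wider pathway list described below, MF1 pools 2 and 3 were the lowest for 2 of 24 probes, and 6 of 24 after centring. Its other targets and feedback genes had 0 of 5, and 2 of 5 after centring. Neuron markers, whose cells carry Dll1, had pool medians of 0.16 and 0.49 in C57 and 0.03, -0.13 and 0.25 in MF1. Markers of neuroepithelium and radial progenitors had 0.04, 0.19, -0.25, -0.13 and 0.10 in the same order, and ventral telencephalon markers -0.32, 0.37, -0.39, -0.35 and 0.05. Surface ectoderm markers had -0.38, 0.09, -0.55, -0.57 and -1.55, so the median of that list was lowest in MF1 pools 2 and 3, also after centring. Probe by probe, MF1 pools 2 and 3 were the lowest for 0 of 3 surface ectoderm probes and 3 of 6 neuron probes. The same held for 3 of 10 neuroepithelium probes and 1 of 6 ventral probes. After centring these counts were 1 of 3, 4 of 6, 3 of 10 and 2 of 6. Probes of the proneural list had 2 of 7, and 4 of 7 after centring. The part of these cell types in the Notch ratios was not tested.

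The wider pathway was read from a list of 56 other genes, 46 of which had a probe and 31 of which were tested, by 32 probes. None passed an adjusted or an unadjusted p of 0.05, against the 3.1% of all probes given above. Of the 32 probes 25 were positive and 7 negative, with a median of 0.09, the same as over all tested probes. After centring 21 were positive, with a median of 0.05.

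The counts by role below stand beside 69.4% positive over all tested probes. By role, the proteases and gamma-secretase parts that cleave the receptor counted 5 positive probes of 6, with a median of 0.21. The smallest p there was that of Adam10, the protease making the first ligand-induced cut, at 0.40 ± 0.18 (SE); Ncstn, a gamma-secretase subunit, stood at 0.53 ± 0.36. The genes that put sugars on the receptor had 3 of 4 positive and a median of 0.23, with Pofut1, which adds fucose, at 0.39 ± 0.19. Regulators of ligand uptake and of Numb had 4 of 5 positive and a median of 0.14, with the ubiquitin ligase Mib2 at -0.22 ± 0.19. Notch4, a receptor of endothelium, was the only other receptor or ligand tested and stood at 0.15 ± 0.16.

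Downstream, the nuclear complex and its co-repressors counted 6 positive probes of 8, with a median of 0.07. Tle4, a Groucho co-repressor that Hes proteins recruit, gave -0.52 ± 0.24 at one probe and 0.08 ± 0.26 at another, so its probes did not meet. Other targets and feedback genes had 6 of 8 positive and a median of 0.07. Nrarp, a target that dampens Notch signalling, had the smallest p among them, at -0.33 ± 0.22, from 0.24 in C57 to -0.89 in MF1, with no value in MF1 pool 1. Hes6, which opposes Hes1, stood at -0.23 ± 0.19. Of these 8 probes 7 were lower in MF1 than in C57, as were the 6 Notch genes, beside the 61.6% of all probes given above. Over the whole wider list 20 of 32 probes were lower in MF1, or 62.5%. After centring the share was 53.1%, beside 51.2% of all probes. Cleavage had 2 of 6 lower in MF1, uptake 2 of 5, sugars 3 of 4 and the nuclear complex 5 of 8. After centring the positive probes were 4 of 6 for cleavage, 3 of 4 for sugars and 3 of 5 for uptake. They were 5 of 8 for the nuclear complex and 5 of 8 for targets, beside 59.2% of all tested probes.

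**Figure D4:**
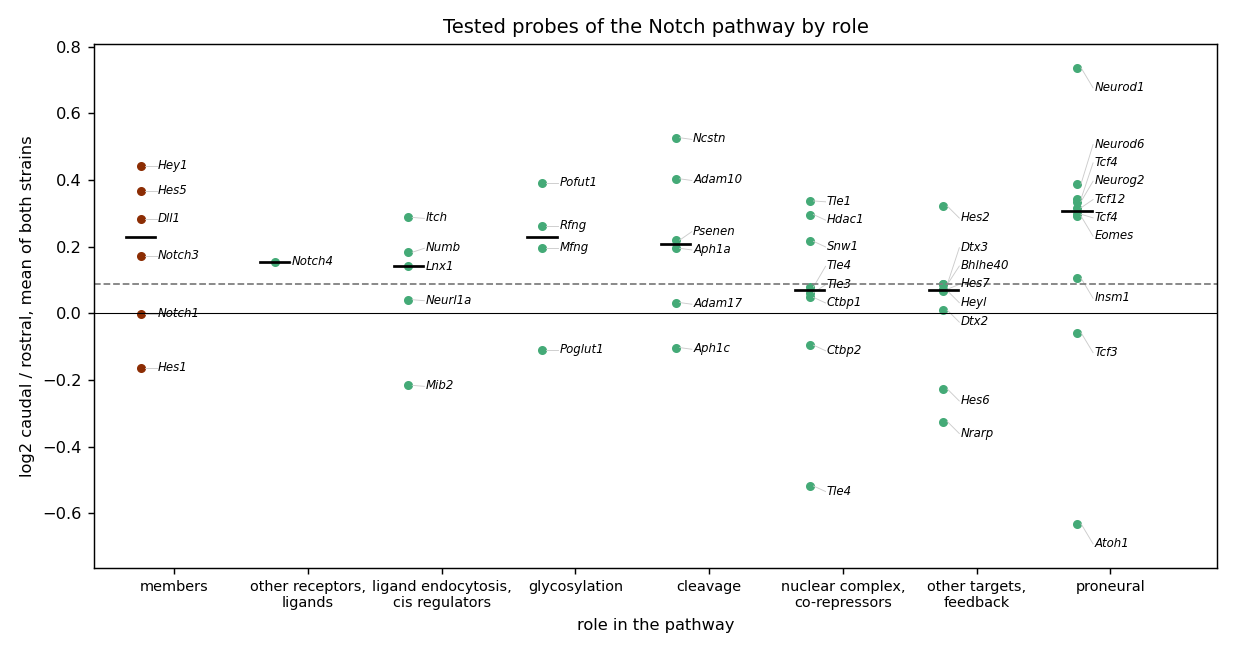
Log2 caudal over rostral ratio, mean of both strains (vertical axis), of each tested probe of the pathway by role (horizontal axis); short bars are medians and the dashed line is the median of all tested probes, 0.09. The 6 Notch genes run from -0.16 (Hes1) to 0.44 (Hey1), inside the range of the proneural genes, -0.63 (Atoh1) to 0.74 (Neurod1).

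The proneural list, on the other side of the loop, counted 8 positive probes of 10, with a median of 0.31. After centring there were again 8, with a median of 0.25. The list also holds the bHLH partners of proneural proteins, Tcf3 at -0.06, Tcf4 at 0.30 and 0.34, and Tcf12 at 0.32. Its counts and medians are thus not those of proneural genes alone. Of all tested probes 69.4% were positive, or 59.2% after centring. Neurod1, a factor of differentiating neurons, was the one with an unadjusted p under 0.05, at 0.74 ± 0.14 (SE, adjusted p = 0.983, limma), and was positive in all 5 pools, from 0.54 to 0.92. Neurog2, the main proneural gene of the dorsal cortex, stood at 0.34 ± 0.16, and Eomes, a marker of intermediate progenitors, at 0.29 ± 0.15. The medians of the list were 0.40 in C57 and 0.18 in MF1, beside 0.68 and -0.11 for the ligand Dll1. Atoh1, which marks the rhombic lip and not the cortex, was -0.63 ± 0.29.

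Markers of the cell types the samples could hold are given by count, with the gene of smallest p. Over all tested probes 69.4% were positive, or 59.2% after centring, and the uncentred median was 0.09. Hem and choroid plexus markers were positive at 7 of 7 probes (median 0.45; Ttr, made by choroid plexus, 1.68 ± 0.19) and surface ectoderm markers at 0 of 4 (median -0.57; Krt18 -1.44 ± 0.19). Neuroepithelium had 7 of 11 (median 0.06; Slc1a3 -0.54 ± 0.16), neurons 7 of 9 (0.11; Nhlh2 0.62 ± 0.17) and ventral telencephalon 4 of 9 (-0.23; Dlx2 -0.76 ± 0.15). After centring hem and choroid plexus had 6 of 7, surface ectoderm 0 of 4 and neuroepithelium 6 of 11. Neurons then had 6 of 9 and ventral telencephalon 3 of 9. By strain, Dlx2 was 0.06 in C57 and -1.58 in MF1. Krt18 was -0.28 in C57 and -2.61 in MF1, with no value in MF1 pool 1. In the endothelial list the gene of smallest p was Sox18, 1.10 ± 0.23, with -0.11 in C57, 2.30 in MF1 and no value in MF1 pool 1. In the mural list, 4 of 6 negative, it was Acta2 at 0.69 ± 0.27, and in the blood list Hbb-y at 0.52 ± 0.15.

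The genes nearest in pattern were found by the root mean square difference of the ratios over all 10 arrays, among 7168 other named genes. For Hey1 they were Fezf2, a transcription factor of the forebrain, at 0.09, Neurog2 at 0.18 and Wdr6 at 0.18, against a median of 0.65 over all genes. For Notch3 they were Bach2, Tnpo3 and Sox11, at 0.18 to 0.19 against a median of 0.61. For Dll1 they were Trim28, Lmnb2 and Ssbp3, at 0.37 to 0.40 against 0.90. The arrays share pools and dyes, so a small difference includes a like response to the dye order.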

How the data were processed

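The data are 10 arrays of embryonic mouse neocortex. The authors deposited a log2 ratio per probe and array, as the values show; scanner, background correction and normalization are not stated in the labels or the tables. The number of arrays limits the precision.

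From these values null entries and 436 values at the shared ceiling of 16.61 (log2 of 1e+05) were treated as missing, and 232 Gapdh control spots were left out, leaving 21766 probes. Ratios were turned to caudal over rostral, the 2 arrays of a pool averaged, and no array was centred. Probe names came from the platform annotation; 15952 of 16632 single symbols matched a RefSeq gene, 139 probes had several and 4995 none. limma 3.58.1 in R 4.3.3 (lmFit, eBayes) was fitted across 11855 probes with a coefficient for each strain, with 2.69 prior and at most 3 residual degrees of freedom, with Benjamini-Hochberg adjustment. Contrasts were the mean of both strains, each strain, and MF1 minus C57. The procedure was tested on simulated data. Alternatives covered centring, scaling, filters, dye order, probe averaging, the variance model and single pools.

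The genes, lists and comparisons were chosen with earlier results of these data known. Genes named are all 9 members, the gene of smallest p in each role or list, and the 3 nearest in pattern to the receptor, ligand and target of largest mean ratio; other names were chosen after their values were seen. Sequences are from RefSeq (GRCm38.p6); 7 of 9 genes had a promoter window. Plots used matplotlib 3.10.9 (Python 3.11.15).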

Additional observations from a re-analysis of the deposited data

How the results depend on the processing

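The number of probes past an adjusted p of 0.05 for the mean of both strains, 0, was 1 after scaling the arrays to one spread and 1 with single arrays and a dye term. The number of Notch genes with an unadjusted p under 0.05, 1 (Hey1), was 0 with centred arrays and 2 on caudal-Cy5 arrays. It was 0 with probes kept from 1 array in 1 pool of each strain. On caudal-Cy3 arrays the 1 gene was Hes1, at -0.36, and without MF1 pool 1 the 1 gene was Hes5, at 0.66. With any 1 MF1 pool left out, Hey1 had an unadjusted p above 0.05 (limma). The median of the 6 genes, 0.23, was -0.067 on caudal-Cy3 arrays, where 2 of 6 were positive. On caudal-Cy5 arrays the mean of Notch1 was 0.12, that of Hes1 0.034 and the strain difference of Hes5 0.37. On caudal-Cy3 arrays the mean of Dll1 was -0.013, that of Hes5 -0.27 and the strain difference of Notch3 0.31. Without single pools the mean of Notch1 ran from -0.11 to 0.11, that of Hes1 from -0.39 to 0.059, and the strain differences of Notch3 and Hes5 from -0.34 to 0.03 and from -0.86 to 0.32. The cause was not tested. Pools of the 2 strains share only a number. With that number as a replicate block 0 probes passed for the strain difference and Dll1 had -0.55. C57 has no pool 3, so the block removed MF1 pool 3 from the difference. Dll1 likewise had -0.55 without MF1 pool 3. The deviations of same-numbered pools correlated at 0.15 and -0.02 across probes.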
